A study of Rattus norvegicus with 14 samples.

Results

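Metallothioneins and antioxidant enzymes were followed as 10 genes, Mt1, Mt2A, Sod1, Sod2, Sod3, Cat, Gpx1, Gpx3, Hmox1 and Nqo1, in the skin of hairless rats. They were chosen by name, and their probes were found by matching the accession of each array probe to these symbols in the rat RefSeq gene table. This gave 11 of the 30367 probes on the array, 2 of them for Mt2A, and all 10 genes were among the 18611 genes tested. All were male CD hairless rats, and whole skin was taken after the last of 5.5 months of exposure or sham treatment. The exposed group was 6 rats given 94 GHz millimetre waves for 3 h per day on 3 days per week, and the sham group was 8 unexposed rats treated as sham for the same period. Each animal gave 1 array of total RNA. The rats were housed in pairs, but the cage of each animal is not among the labels, so each was treated as an independent animal in the tests. The labels name the strain, sex and treatment of these animals but not their age, and a biopsy of whole skin holds epidermis, dermis, follicles and, in differing amounts, fat, muscle and blood.

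Metallothioneins are small cysteine-rich proteins that bind zinc and copper and can take up oxidants; their genes are switched on through MTF1, a zinc-sensing factor that binds metal response elements. Superoxide dismutases turn superoxide into hydrogen peroxide, which catalase and the glutathione peroxidases then remove. Heme oxygenase 1 and the quinone reductase NQO1 are enzymes of the response driven by NRF2, a factor held down by KEAP1 that binds antioxidant response elements. In skin these systems are known for their part in the response to ultraviolet light, heat, metals and wounding.

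Values are log2 processed signals minus the 75th percentile of the same array, and differences are exposed minus sham. That percentile ran from 804.5 to 1967 scanner units over the 14 arrays and was lowest in sham animal 6. The arrays lay on 4 slides, each scanned on its own. There were 2 sham arrays on slide 1, 2 exposed arrays on slide 2, 3 arrays of either group on slide 3, and on slide 4 the remaining 1 exposed with 3 sham arrays. Sham 6 also had the lowest adipocyte score (-1.30), the lowest hair follicle score (-1.58) and the highest red blood cell score (0.92), each the mean over a marker list of gene-centred log2 values. The keratinocyte genes Krt5, Krt14, Krt1, Tp63 and Ivl, checked against the label of skin, were well above background on all 14 arrays. In the exposed group 13 of 13 measured skeletal muscle markers, 9 of 10 hair follicle markers and 7 of 7 adipocyte markers had the higher mean, and none of them passed the test. The lower mean in exposed skin was found for 6 of 7 keratinocyte, 5 of 6 fibroblast, 4 of 4 endothelial, 6 of 7 macrophage and 3 of 4 neutrophil markers and for 3 of 6 red blood cell markers, again with none past the test. The summed level of the muscle markers ran from 1.46 to 7.73 in exposed and from 0.89 to 6.40 in sham skin on the log2 scale, with each measured marker well above background on at least 9 arrays, while Myh4 and Myh2 did not pass the filter on dim probes.

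The promoters of the metallothionein genes are shown first, because Mt1 and Mt2A were the members that varied most closely together and stand next to each other on chromosome 19, followed by Mt3 and Mt4. The 250 bases before each annotated start are given from RefSeq, assembly GRCr8, as read 5′ to 3′ on the strand of the gene, which is the minus strand for both. Capitals mark the letters of a metal response element core, taken here in the loose form TGCNCNC, or an antioxidant response element core (TGACNNNGC). N is any base, and both strands were searched. The Mt1 stretch lies at chr19:10832976-10833225 and the Mt2A stretch at chr19:10838709-10838958.
Mt1: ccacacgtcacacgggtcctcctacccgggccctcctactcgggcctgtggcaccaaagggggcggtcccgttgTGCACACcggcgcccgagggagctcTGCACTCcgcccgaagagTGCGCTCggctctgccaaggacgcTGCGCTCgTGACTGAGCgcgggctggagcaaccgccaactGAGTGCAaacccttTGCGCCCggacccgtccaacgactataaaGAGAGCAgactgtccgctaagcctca
Mt2A: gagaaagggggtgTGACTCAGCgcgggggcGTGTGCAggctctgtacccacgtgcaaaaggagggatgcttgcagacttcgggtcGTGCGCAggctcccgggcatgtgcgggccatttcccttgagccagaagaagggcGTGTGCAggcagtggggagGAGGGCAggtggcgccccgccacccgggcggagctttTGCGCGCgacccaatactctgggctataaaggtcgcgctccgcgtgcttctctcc

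The Mt1 promoter held 7 metal response element cores and the Mt2A promoter held 5, and each held 1 antioxidant response element core. Matches of both motifs did not overlap one another. Of 33469 promoter windows of this length in the table, 43.4% held at least 1 metal response element core, 0.37% held at least 5 and 0.060% held at least 7. An antioxidant response element core was found in 10.1% of the windows. Promoters of 8 of the 10 genes were in the table, not including Sod3 and Hmox1. Cat had 2 metal response element cores in this loose form and Sod2 had 1 antioxidant response element core. Stricter forms of the metal response element core ask for A or G at its middle base. Both Cat matches have T there, 1 Mt1 match has T and 1 Mt2A match has C, so these would not count. In the windows of Sod1, Gpx1, Gpx3 and Nqo1 neither set of letters was found. The window of Sod1 ended at the start of another transcript than the one that marks the gene's start. A match of letters is a description of the sequence and was not tested for binding.

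**Figure D1:**
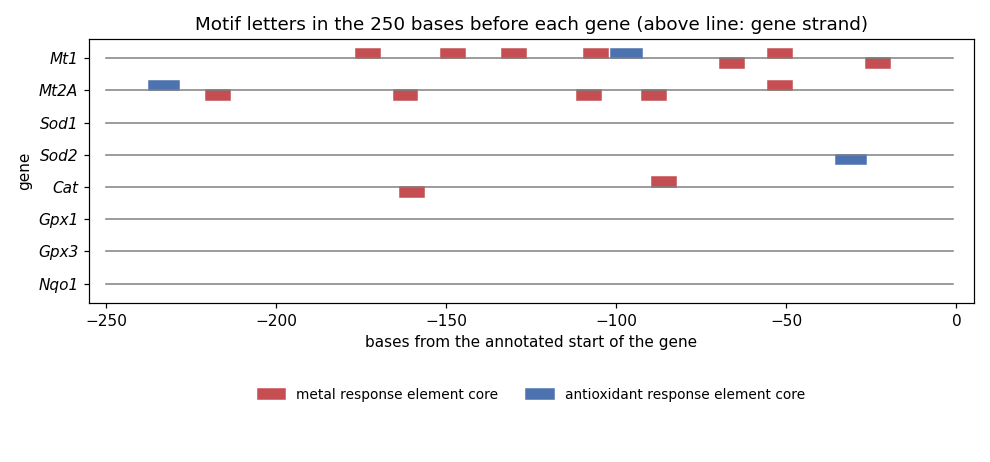
Positions of the motif letters in the 250 bases before the annotated start of 8 genes, with distance from the start in bases on the horizontal axis; red boxes are metal response element cores, blue boxes antioxidant response element cores, above the line where they read on the gene's strand and below it otherwise. Mt1 has 7 red boxes and Mt2A 5, and 4 genes have none of either colour.

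No gene among the 10 passed the test between exposed and sham skin. In the limma fit over all 18611 genes 0 members passed an adjusted p of 0.05, and 0% of all genes did so. At an unadjusted p under 0.05 limma gave 0 members, against 636 genes (3.42%) of all tested, 192 higher in exposed skin (1.03%) and 444 lower (2.39%). The exposed mean was the higher one for 6 members and the lower one for 4, with a median difference of 0.023. Over all genes 8000 differences were above 0 and 10611 below, with a median of -0.019. The groups overlapped for all 10 members, and across the array 6 genes (0.0322%) had groups that did not. The adjusted p was 1.00 for every member with limma, so the differences below are given with their intervals and their unadjusted p.

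**Figure D2:**
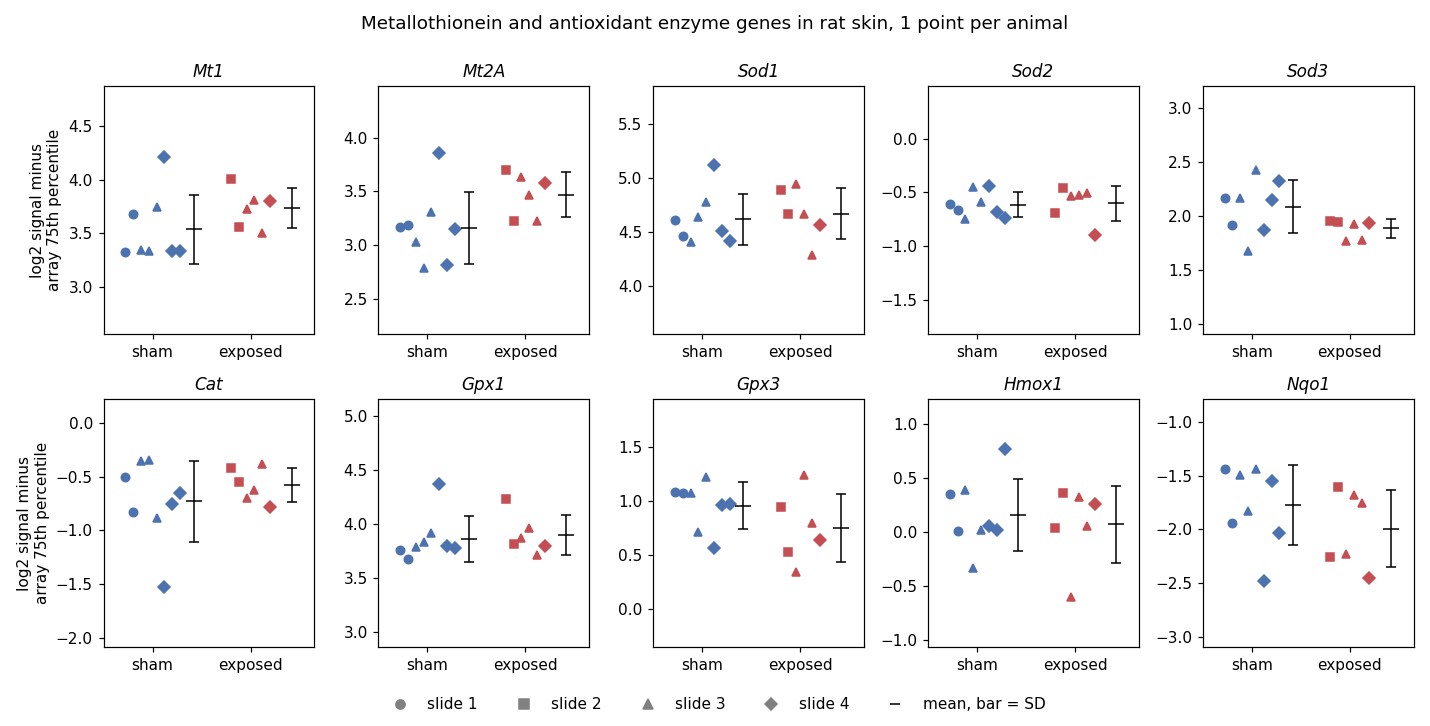
Log2 signal minus the array's 75th percentile (vertical axis) of the 10 genes in 8 sham (blue) and 6 exposed (red) animals, 1 point per animal, with the marker shape giving the slide and black bars the mean and SD of each group. Every panel spans the same number of log2 units, and the groups overlap in all of them.

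The metallothioneins Mt1 and Mt2A, both widely expressed zinc and copper binding proteins, had higher means in exposed skin without passing the test. Mt1 lay at 3.50, 3.76 and 4.01 (lowest, median and highest) in exposed and at 3.33, 3.34 and 4.21 in sham animals. Of the 8 sham animals, 5 were below every exposed animal, and sham 6 was the highest of all 14. Exposed skin had a mean of 3.73 ± 0.18 (SD, n = 6) and sham skin one of 3.54 ± 0.32 (SD, n = 8). The difference was 0.19 ± 0.14 (SE), with a 95% interval of -0.11 to 0.50, or 1.14-fold, and limma gave an unadjusted p of 0.192.

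Mt2A lay at 3.22, 3.52 and 3.70 in exposed and at 2.79, 3.16 and 3.86 in sham animals, again lowest, median and highest. Here 6 of the 8 sham animals were below every exposed animal, 1 lay within their range, and sham 6 was above them all. The means were 3.47 ± 0.20 (SD, n = 6) and 3.16 ± 0.33 (SD, n = 8). The difference of 0.31 ± 0.15 (SE; 95% interval -0.010 to 0.62) was 1.24-fold (0.993 to 1.54), with a limma unadjusted p of 0.0567 and an exact two-sided permutation p of 0.0723. Each gene had 6 of 6 exposed animals above the sham median. The second Mt2A probe gave a difference of 0.27 ± 0.15 and followed the first across animals (r = 0.957 over 14 arrays).

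One sham animal moved these values more than any other. Without sham 6 the difference became 0.29 for Mt1 (limma, unadjusted p = 0.0134) and 0.41 for Mt2A (unadjusted p = 0.00241), and neither passed after adjustment over all genes. The same step raised the number of all genes with an unadjusted p under 0.05 from 636 to 1549. When any other single animal was left out, Mt1 stayed between 0.14 and 0.24 and Mt2A between 0.25 and 0.36. The limma unadjusted p was then between 0.132 and 0.364 for Mt1 and between 0.0400 and 0.121 for Mt2A. With slide as a block Mt1 was 0.19 higher and Mt2A 0.36 higher in exposed skin (limma, unadjusted p = 0.336 and 0.0923). Within slide 3, with 3 arrays a group, the differences were 0.20 and 0.40 (limma, unadjusted p = 0.247 and 0.0633). Within slide 4, where 1 exposed array stands against 3 sham arrays, they were 0.17 and 0.30. The exposed mean was thus the higher one in both slides that held both groups. Adding a marker score to the fit left Mt2A at 0.35 (muscle), 0.38 (adipocyte) and 0.37 (hair follicle), with limma unadjusted p of 0.0457, 0.0219 and 0.0347. Mt1 was then at 0.21, 0.29 and 0.26, with limma unadjusted p of 0.196, 0.03 and 0.0993. Scaling moved the p-values as well. After quantile normalization Mt2A was at 0.34 (limma, unadjusted p = 0.00974) and Mt1 at 0.22 (unadjusted p = 0.0598). In the values deposited by the authors they were at 0.34 (limma, unadjusted p = 0.00662) and 0.23 (unadjusted p = 0.0499). With array signal as a covariate Mt2A was at 0.31 (limma, unadjusted p = 0.0244) and Mt1 at 0.19 (unadjusted p = 0.136). With another form of background correction Mt2A was at 0.29 (limma, unadjusted p = 0.0543) and Mt1 at 0.18 (unadjusted p = 0.167). None of these passed after adjustment over all genes. Array weights gave 0.32 for Mt1 (limma, unadjusted p = 0.00611, adjusted p = 0.229) and 0.43 for Mt2A (unadjusted p = 0.00141, adjusted p = 0.208). The lowest weight was that of sham 6 (0.127, next exposed 3 at 0.401), so this fit is not independent of the one without sham 6.

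The other genes of the cluster were more variable. Mt4, a metallothionein of stratified epithelium, lay between 2.45 and 5.59 in exposed and between 0.93 and 3.82 in sham skin, and the groups overlapped. Its means were 3.58 ± 1.19 (SD, n = 6) and 2.22 ± 1.09 (SD, n = 8). The difference was 1.36 ± 0.56 (SE; 95% interval 0.16 to 2.56), with a limma unadjusted p of 0.0291 and an adjusted p of 1.00. With slide as a block it was 1.88 (limma, unadjusted p = 0.0231), and within slides 3 and 4 it was 1.69 and 2.26. It ran from 0.96 to 1.59 with each animal left out in turn. With the hair follicle score in the fit it was 0.78 (unadjusted p = 0.0701). That score ran from -1.25 to 1.53 in exposed and from -1.58 to 1.14 in sham animals. Mt3, known best from brain, differed by -0.41 (95% interval -1.32 to 0.50). The Mt3 difference was -0.045 with the same score in the fit and -0.74 with slide as a block. The spread of Mt4 within groups was wider than that of 98.6% of all genes, while Mt1 and Mt2A stood at the 56.8th and 60.3rd percentile.

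**Figure D3:**
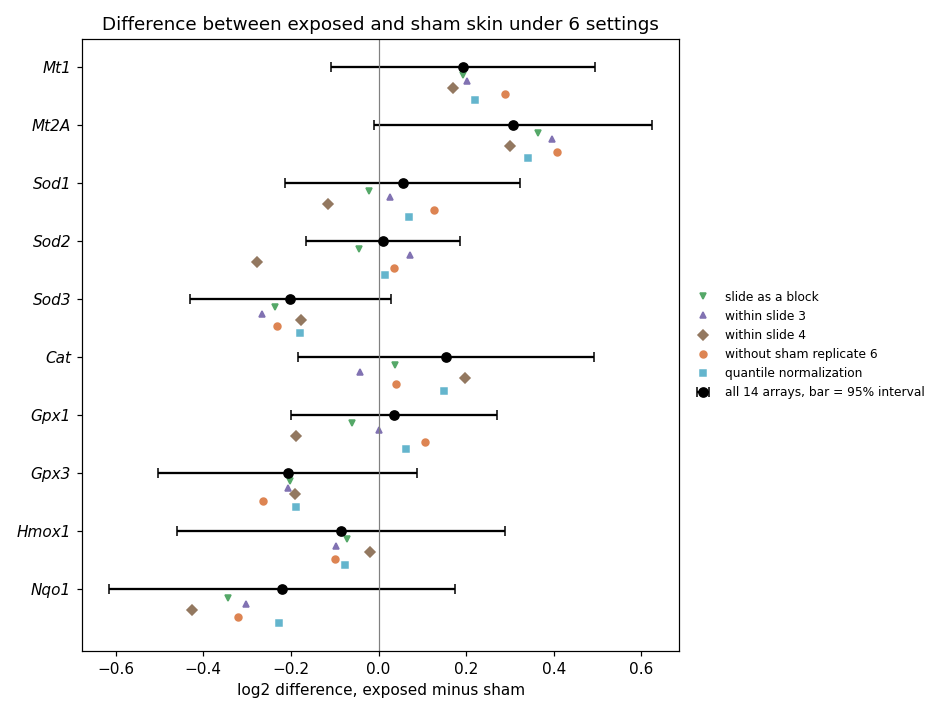
Log2 difference, exposed minus sham, of the 10 genes; black points use all 14 arrays with 95% intervals, and coloured points are the same difference after quantile normalization, without sham 6, within each of slides 3 and 4, and with slide as a block. All 10 black intervals include 0, and the points of Mt1 and Mt2A lie to the right of 0 and those of Sod3, Gpx3 and Nqo1 to its left under these 6 settings.

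The superoxide dismutases showed no change past the test. Sod1, the cytosolic copper and zinc enzyme, lay at 4.29, 4.67 and 4.95 (lowest, median and highest) in exposed and at 4.41, 4.56 and 5.12 in sham skin, where sham 6 was again the highest of all animals. Its difference was 0.055 (95% interval -0.21 to 0.32). The sign turned to -0.022 with slide as a block. Sod2, the mitochondrial manganese enzyme, was the steadiest member, at -0.90, -0.53 and -0.46 in exposed and -0.75, -0.63 and -0.44 in sham skin. Over all 14 animals it spanned 1.38-fold, its spread within groups was wider than that of only 18.2% of genes, and its difference was 0.010 (95% interval -0.16 to 0.19). That difference had no settled sign, being -0.044 with slide as a block.

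Sod3, the extracellular dismutase bound to matrix, was lower in mean in exposed skin. It lay at 1.77, 1.93 and 1.96 in exposed and at 1.68, 2.16 and 2.43 in sham animals. None of the 6 exposed animals reached the sham median, and 5 of 8 sham animals lay above the highest exposed one. The means were 1.89 ± 0.087 (SD, n = 6) and 2.09 ± 0.25 (SD, n = 8), so the exposed values sat in a narrow band inside the sham range. The difference was -0.20 ± 0.11 (SE; 95% interval -0.43 to 0.028), or 0.87-fold, with a limma unadjusted p of 0.0805 and an exact permutation p of 0.0846. Within slides 3 and 4 it was -0.27 and -0.18, and without sham 4, which had the lowest sham value, it was -0.26 (limma, unadjusted p = 0.0153). Without sham 5, which had the highest sham value, it was -0.15 (limma, unadjusted p = 0.151).

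Of the enzymes that remove peroxide, catalase and Gpx1 overlapped widely between groups. Catalase (Cat), the heme enzyme of peroxisomes, lay at -0.78, -0.59 and -0.39 in exposed and at -1.52, -0.71 and -0.34 in sham skin. The value of -1.52 was that of sham 6, and the next lowest sham animal was at -0.88. The difference of 0.15 (95% interval -0.18 to 0.49) fell to 0.041 without sham 6, and it was -0.042 within slide 3. Gpx1, the cytosolic selenium-dependent glutathione peroxidase, lay at 3.71, 3.85 and 4.24 in exposed and at 3.68, 3.79 and 4.37 in sham skin, with sham 6 the highest. Its difference was 0.035 (95% interval -0.20 to 0.27) with all animals, 0.11 without sham 6 and -0.062 with slide as a block.

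Gpx3, the secreted glutathione peroxidase, had the lower mean in exposed skin. It lay at 0.34, 0.72 and 1.24 in exposed and at 0.56, 1.02 and 1.22 in sham animals, so both the lowest and the highest animal were exposed ones. Only 1 of 6 exposed animals, exposed 4, was above the sham median. The difference was -0.21 ± 0.14 (SE; 95% interval -0.50 to 0.088), with a limma unadjusted p of 0.155. It was -0.21 within slide 3 and -0.19 within slide 4. Leaving out exposed 4 took it to -0.31 (limma, unadjusted p = 0.0298), and leaving out exposed 3 took it to -0.13.

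The inducible enzymes Hmox1 and Nqo1 had the highest SD between animals when pooled over both groups (0.34 and 0.36), while in sham skin alone that of Cat was the highest (0.38). Hmox1, which breaks down heme, lay at -0.60, 0.16 and 0.36 in exposed and at -0.34, 0.037 and 0.76 in sham skin, a 2.58-fold span over the 14 animals. Its lowest value belonged to exposed 3 and its highest to sham 8. The difference was -0.085 (95% interval -0.46 to 0.29) and turned to 0.050 without exposed 3. Nqo1, a quinone reductase, lay at -2.45, -1.99 and -1.61 in exposed and at -2.48, -1.69 and -1.44 in sham skin. Of the sham animals, 4 of 8 were above the highest exposed one, while sham 6 was the lowest of all. The difference was -0.22 ± 0.18 (SE; 95% interval -0.62 to 0.17), with a limma unadjusted p of 0.251. It was -0.30 within slide 3, -0.43 within slide 4 and -0.32 without sham 6, so its sign was the same in each of these.

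As folds, the 95% intervals were as follows. The upper bound for Mt2A was 1.54-fold and that for Mt1 1.41-fold. For Sod1, Sod2 and Gpx1 the intervals ran from 0.862-fold to 1.25-fold, from 0.892-fold to 1.14-fold and from 0.871-fold to 1.21-fold. At the low end Nqo1 reached 0.653-fold, Gpx3 0.706-fold and Hmox1 0.727-fold. Repeat spots on 1 array share the same labelled RNA, so their spread covers noise between spots alone. Spots of the same probe on 1 array had a median SD of 0.014 to 0.045, while the SD between animals, pooled over both groups, was 0.14 to 0.36.

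Members also showed no difference between slides past the test. In a limma F test of the slide terms beside group, 0 of the 10 members passed an adjusted p of 0.05, and 0% of all genes did. At an unadjusted p under 0.05 no member was called, against 503 genes (2.7%) of all tested. The means of the 4 slides spanned 0.12 for Sod3, the least, and 0.44 for Cat and Nqo1, the most. Cat was lowest on slide 4 (-0.93) and highest on slide 2 (-0.49), and Nqo1 was lowest on slide 4 (-2.13) and highest on slide 1 (-1.69). Slide 4 held sham 6, the lowest animal for both. Slides 1 and 2 each held 1 group, so there slide and group cannot be told apart.

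Across the 14 animals Mt1 and Mt2A rose and fell together. Their Pearson correlation was 0.905, with a permutation p of 1e-05, the smallest that 100000 resamples can give, and a Benjamini-Hochberg adjusted p of 0.00045 over the 45 pairs of members. Spearman's rho was 0.89 (permutation p = 5e-05, adjusted p = 0.00157). Without sham 6 and exposed 1, the animals farthest from the Mt1 median, r was 0.831. It was 0.883 within slide 3, over 6 arrays, and slides 1, 2 and 4 held too few arrays for a value. After quantile normalization it was 0.857. The probes of these genes may in part detect both transcripts, since paralogs of 1 family can cross-hybridise, and this was not tested.

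In all, 7 of the 45 pairs passed an adjusted permutation p of 0.05, and 4 of the other 6 joined a metallothionein with Sod1 or Gpx1. Sod1 and Gpx1 correlated at 0.834 (permutation p = 0.00014, adjusted p = 0.00315; rho 0.877, permutation p = 7e-05, adjusted permutation p = 0.00157), at 0.764 within slide 3, and at 0.707 without the 2 animals farthest from the Sod1 median. Mt1 correlated with Gpx1 at 0.799 and with Sod1 at 0.749, and Mt2A with Gpx1 at 0.694 and with Sod1 at 0.698. These 4 values rested in large part on sham 6 and exposed 1, without which they were 0.421, 0.481, 0.314 and 0.456. The 1 negative pair was Mt2A with Nqo1, at -0.703 (rho -0.556), or -0.523 without the same animals. For these 5 pairs the permutation p of r was between 0.00054 and 0.00539 and its adjusted p between 0.0081 and 0.0346, while the adjusted p of rho was between 0.0987 and 0.171.

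The number of pairs depended on the scaling and on sham 6. After quantile normalization 1 pair passed, and without sham 6 also 1. With slide means removed 14 pairs passed, and with group means removed 9. Another form of background correction gave 6, and averaging the probes of a gene gave 7. Within slide 3 none did, but there 6 arrays allow no p under 0.00139, which for a single pair among 45 is an adjusted p of 0.0625, so this says nothing about stability. The Sod1 and Gpx1 value was 0.473 after quantile normalization, against 0.857 for Mt1 and Mt2A. Removing each gene's linear fit on array signal left 2 pairs past the threshold. Mt1 with Cat, at -0.637, did not pass with all 14 arrays (adjusted permutation p = 0.0671). Its r was -0.807 with group means removed, -0.805 with slide means removed and -0.871 within slide 3. Without sham 6 it was -0.317.

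**Figure D4:**
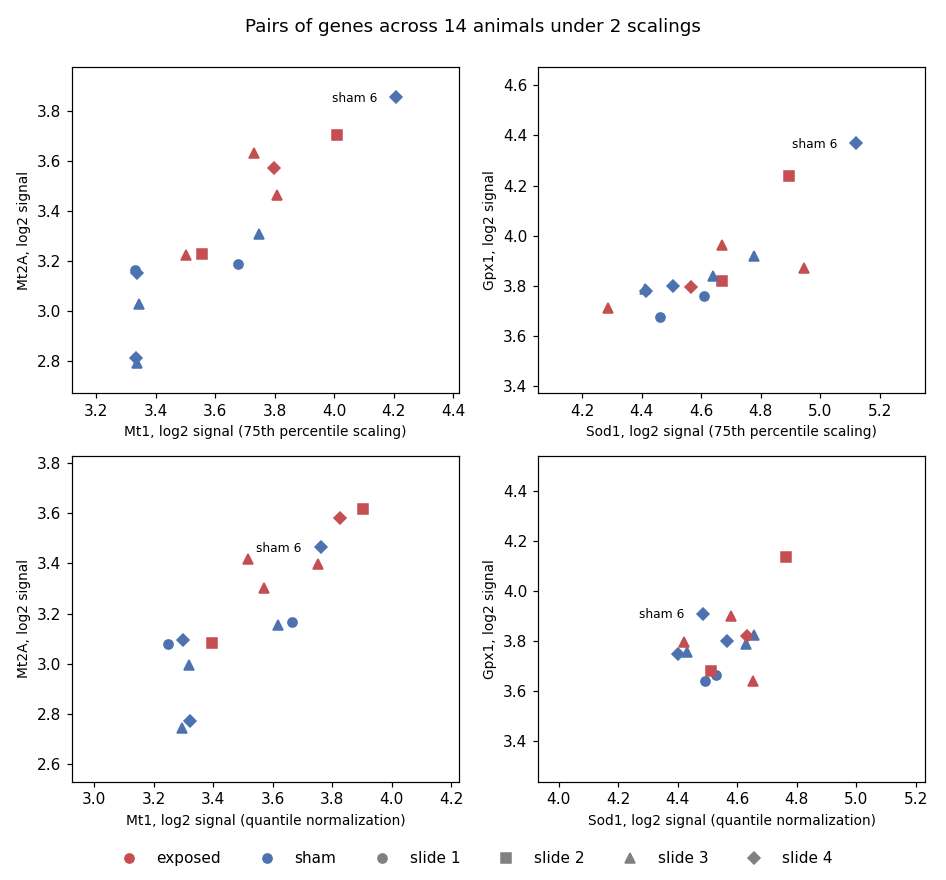
Log2 signal of Mt2A against Mt1 (left) and of Gpx1 against Sod1 (right) in 14 animals, scaled by the 75th percentile (top) or by quantile normalization (bottom); colour gives the group and marker shape the slide. Sham 6 is labelled: the points of Mt1 and Mt2A stay along a line under both scalings (r = 0.905 and 0.857), and those of Sod1 and Gpx1 spread more after quantile normalization (r = 0.834 and 0.473).

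**Figure D5:**
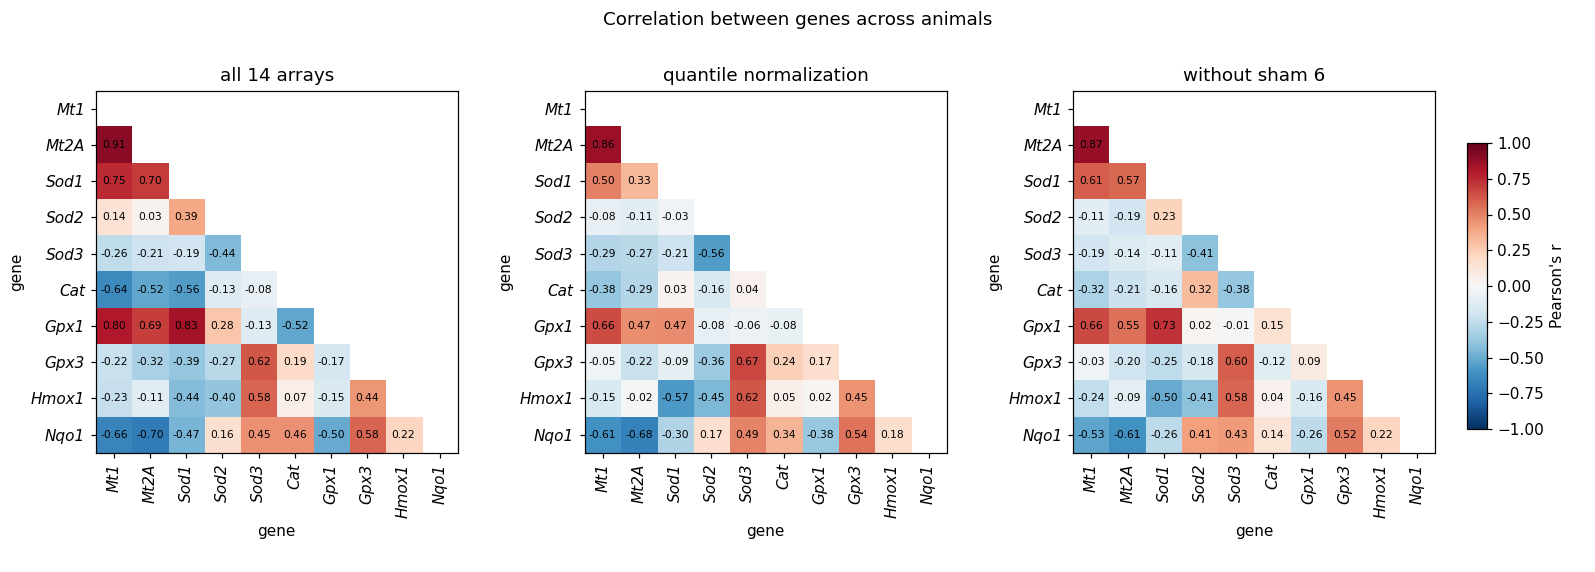
Pearson's r between each pair of the 10 genes across animals, as a colour from blue (-1) to red (1) with its value in each cell, for all 14 arrays, after quantile normalization and without sham 6. The Mt1 and Mt2A cell is 0.905, 0.857 and 0.872, and the block that joins them with Sod1 and Gpx1 is paler in the grids for quantile normalization and without sham 6.

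The scaled values of Sod1 and Gpx1 moved with array signal. That signal is also the term subtracted from every value. A gene whose signal does not follow it fully thus correlates with it through the scaling, and the p-values below do not separate this. Against the log2 75th percentile of each array Sod1 correlated at -0.844 (permutation p = 0.00014, adjusted over 10 members 0.0014; rho -0.811) and Gpx1 at -0.769 (permutation adjusted p = 0.0231; rho -0.714). Without sham 6 and exposed 3, the arrays of lowest signal, these were -0.624 and -0.618. Within slide 3, over 6 arrays, they were -0.785 and -0.295. Both genes thus read relatively higher on dimmer arrays, and with each gene's linear fit on array signal removed their correlation was 0.539 (permutation p = 0.0464, adjusted p = 0.218) in place of 0.834. For the other 8 members the adjusted permutation p was at least 0.0891. With array signal as a covariate the exposed minus sham differences were 0.057 for Sod1 and 0.037 for Gpx1.

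None of the 40 relations between a member and a muscle, adipocyte, hair follicle or red blood cell score passed. The smallest adjusted permutation p, 0.304, was shared by 3 of them. Gpx1 with the adipocyte score had r = -0.736 (permutation p = 0.00783; rho -0.327) and Cat with the red blood cell score r = -0.69 (permutation p = 0.0193; rho -0.327). These rested on sham 6 and exposed 1, without which r was 0.168 and -0.021, and within slide 3 it was 0.089 and -0.028. Gpx1 with the hair follicle score had r = -0.576 (permutation p = 0.0228; rho -0.451), -0.604 without sham 6 and sham 1, the animals farthest from the median score, and -0.285 within slide 3. Mt2A moved the other way with the adipocyte score, from r = -0.218 over 14 arrays. That value was 0.804 without sham 6 and exposed 1, 0.272 without sham 6 alone and 0.916 within slide 3. With the red blood cell score Mt2A had r = 0.497 over 14 arrays, and 0.734, 0.197 and 0.656 in the same order. No relation passed within slide 3 or without sham 6 either. In bulk skin, fewer cells of a type and less RNA per cell cannot be told apart.

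For each member, the 3 named genes with the highest Pearson r over the 14 arrays are given as a description, since all values share the same arrays and their scaling. Mt2A was among the 3 for Mt1 (with Ythdf3 at 0.933 and Mdp1 at 0.898), and Mt1 among the 3 for Mt2A (with Zbed4 at 0.922 and Ankib1 at 0.903). Sod1 was nearest to Cox17 (0.961), a copper chaperone of mitochondria, and to the mitochondrial ribosome genes Mrpl32 (0.959) and Mrps12 (0.958). Those 3 values were 0.516, 0.463 and 0.508 after quantile normalization. Gpx1 was nearest to Gmfg (0.935), S100a4 (0.933) and Cdc42ep5 (0.929), which after quantile normalization were at 0.768, 0.799 and 0.524.

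Catalase was nearest to Rem1 (0.938), Ttc21b (0.928) and Pex7 (0.918), the last a receptor for import into peroxisomes, where catalase resides. Without sham 6 the value for Pex7 was 0.752. Hmox1 was nearest to Atosa (0.938), Slc48a1 (0.916), a heme transporter, and Tmed3 (0.90), and these kept 0.938, 0.923 and 0.904 without sham 6. Gpx3 was nearest to Slc2a10 (0.853), Prelp (0.849), a proteoglycan of connective tissue, and Zfat (0.841). Sod3 was nearest to Flot2 (0.863), Srpk1 (0.853) and Eif4h (0.845), Sod2 to Polr2m (0.859), Tgfbr1 (0.859) and Zranb2 (0.822), and Nqo1 to Fadd (0.90), Ptcd2 (0.887) and Ccdc32 (0.863). After quantile normalization Eif4h was at 0.615 for Sod3 and Polr2m at 0.644 for Sod2.

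The other genes of these pathways were taken from 7 lists with 92 genes, of which 85 were measured. With limma 0 of them passed an adjusted p of 0.05 (0% of all genes), and at an unadjusted p under 0.05 there were 2 higher, Mt4 and Hfe, and 1 lower, Aldh3a1. Over all genes tested 3.42% had such a p, 1.03% higher and 2.39% lower, so 3 of 85 is near the background. Differences were above 0 for 34 and below 0 for 51, with a median of -0.023, near the -0.019 of all genes. Per list, differences above and below 0 numbered 7 and 13 for the glutathione system, 8 and 8 for thioredoxins and peroxiredoxins, 4 and 5 for regulators, and 4 and 7 for other NRF2 target enzymes. They numbered 3 and 6 for heme and iron handling, 7 and 4 for metal handling, and 1 and 8 for sources of superoxide and peroxide, the last with a median of -0.12.

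The regulators of the members did not pass the test. Nfe2l2, which encodes NRF2, differed by 0.11 (95% interval -0.035 to 0.26), Keap1 by -0.077 (-0.49 to 0.34), and Mtf1, the metal-responsive factor, by 0.023 (-0.20 to 0.24). Sqstm1, which binds KEAP1, differed by -0.11, and its second probe by -0.012. Without sham 6 Keap1 was at -0.24, Mtf1 at -0.053 and Sqstm1 at -0.16, while Nfe2l2 was at 0.11. With slide as a block Nfe2l2 was at 0.057, and within slide 3 at -0.018. Among genes that supply glutathione, Gclc and Gss, which make it, differed by 0.090 and 0.17, and Ggt1, which breaks it down outside the cell, by 0.71 (-0.52 to 1.94). Ggt1 was -0.013 with the hair follicle score in the fit, and it ran from 0.38 to 1.09 with each animal left out in turn. With slide as a block Ggt1 was 1.31 (limma, unadjusted p = 0.0931), and within slides 3 and 4 it was 0.65 and 2.63. Gpx4, the lipid peroxide reductase, differed by -0.031. Without sham 6 Gpx4 was at 0.077 and Gss at 0.089. Gclm was not measured, since it did not pass the filter on dim probes.

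In the thioredoxin system Txnip, which binds and inhibits thioredoxin, differed by -0.23 (95% interval -0.46 to 0.0019), with a limma unadjusted p of 0.0516. Txnip was at -0.090 within slide 3 and at -0.21 with slide as a block (limma, unadjusted p = 0.0676). With the hair follicle score in the fit it was at -0.27 (limma, unadjusted p = 0.0320). Prdx3, the mitochondrial peroxiredoxin, differed by 0.11 (0.047 without sham 6 and -0.077 within slide 3), Txnrd1 by -0.0045 and Srxn1, which repairs peroxiredoxins, by 0.073. Aldh3a1, an aldehyde dehydrogenase of epithelia, differed by -0.28 ± 0.13 (SE; -0.55 to -0.0079), with a limma unadjusted p of 0.0444, and by -0.32 and -0.23 within slides 3 and 4. Me1, which makes NADPH, differed by -0.097 (-0.042 without sham 6), and its second probe by 0.081.

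The iron uptake regulator Hfe differed by 0.43 (0.18 to 0.68; limma, unadjusted p = 0.00245), but its second probe, well above background on 8 arrays, differed by -0.050. The iron transporter Slc11a2 differed by -0.16, and its second probe by 0.098. The zinc importer Slc39a4 differed by -0.19, and the oxidant-producing enzymes Duox2 and Xdh by -0.19 and -0.14. With slide as a block Duox2 was at -0.029, and within slide 3 at -0.014. With the hair follicle score in the fit it was at -0.30 (limma, unadjusted p = 0.00763).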

How the data were processed

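Per the labels' protocols, total RNA from skin biopsies was labelled with Cy3 and hybridised to 1-colour Agilent arrays, 1 per animal. The deposited scanner files hold spot intensity on a linear scale, background-subtracted by Agilent Feature Extraction 10.7.3.1 per the file headers. The authors' deposited table holds log2 values centred per probe; how it was normalized is not stated in the labels or headers, and it served as an alternative. Arrays give no counting depth.

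Of 62976 spots, 4259 control spots and flagged outlier spots (5 in all for the members, in Mt2A) were left out. Log2 processed signal minus each array's 75th percentile was averaged over spots of a probe. Probes well above background on at least 6 arrays were kept (21014 of 30367), and the brightest kept probe stood for a gene. Names came from accessions matched to RefSeq (GRCr8; 17998 probes). No member spot was saturated. The comparison of groups used R 4.3.3 and limma 3.58.1 (group as the only term of lmFit and eBayes, two-sided, Benjamini-Hochberg over all genes) after a check on simulated data; exact tests used all 3003 splits of the animals. Alternatives covered background, scaling, filters, probes, slide, covariates, weights and each animal left out; array signal, and correlations and slide tests without sham 6, were added after seeing the data. Members and lists were chosen with earlier results of these data known. Genes named were the members, the 2 of smallest p in each pathway list, 10 genes fixed by name and the 3 most alike genes of each member.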

Additional observations from a re-analysis of the deposited data

Results flagged for a closer look

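In 9 of 62 groups of values examined, for the members and the pathway genes named, 1 animal stood apart from the rest of its group by Dixon's criterion. For a single group chance gives about 1 in 20. The groups are genes on the same arrays and are not independent, so the count cannot be set against that rate. Sham 6 was that animal in 7 and exposed 3 in the other 2. Among the members, sham 6 had -1.52 for Cat (nearest sham animal -0.88) and 4.37 for Gpx1 (nearest 3.92), and exposed 3 had -0.60 for Hmox1 (nearest exposed animal 0.039). In sham 6 Gss, a glutathione synthesis enzyme, was at -1.67, Sqstm1 at 1.60, Keap1 at -2.36, Mtf1 at -4.25 and the lipid peroxide reductase Gpx4 at 5.51. In exposed 3 the thioredoxin reductase Txnrd1 was at -3.10 (nearest exposed animal -2.21). Sham 6 and exposed 3 were also the arrays of lowest signal, at 804.5 and 1075 scanner units at the 75th percentile, and the part of signal in these values was not tested.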

How the results depend on the processing

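Under the 29 alternatives run, limma called 0 members and 0 genes at an adjusted p of 0.05, and the smallest adjusted p of any member was 0.208, for Mt2A with array weights, where 2369 genes had an unadjusted p under 0.05. The signs of Mt1, Mt2A, Sod3, Gpx3 and Nqo1 were the same under all of them. With slide as a block Sod1 was -0.022, Sod2 -0.044 and Gpx1 -0.062, and within slide 4 they were -0.12, -0.28 and -0.19. Cat was -0.042 within slide 3, Sod2 -0.0058 with the muscle score and Hmox1 0.011 with array weights. With each animal left out in turn, Sod1 ran from -5.7e-05 to 0.13, Sod2 from -0.018 to 0.069, Gpx1 from -0.033 to 0.11 and Hmox1 from -0.16 to 0.050. The 7 pairs past the threshold became 1 with quantile normalization, 14 with slide means removed and 9 with group means removed. They became 6 with another form of background correction and stayed at 7 with probes averaged. The number was 0 within slide 3 (where 6 arrays can hardly reach it), 1 without sham 6 and 2 with array signal removed. No member passed between slides, and no relation with a marker score passed, under any alternative run for them. The causes were not tested. No paired analysis was possible because the labels give animals no shared numbers across groups. The differences are small against signals well above background on all 14 arrays, and what limits their precision was not tested. Slides 1 and 2 hold 1 group each, and cage is unknown.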
